A study of Arabidopsis thaliana with 6 samples.

Results

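Abscisic acid (ABA) is the plant hormone of drought, of seed dormancy and of stomatal closure, and its level rises in leaves under water stress and during senescence. The hormone is cut from carotenoids in plastids by 9-cis-epoxycarotenoid dioxygenases (NCEDs), finished in the cytosol, and removed by 8′-hydroxylases of the CYP707A family. Bound ABA lets the PYR/PYL receptors hold clade A protein phosphatases 2C (PP2Cs), which frees SnRK2 kinases to phosphorylate ABF bZIP factors. These factors bind the ABA-responsive element (ABRE) of target genes such as dehydrins, and they also raise the PP2C genes, a negative feedback on the pathway.

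The 41 genes described here were taken by locus from a list of ABA synthesis, turnover, receptor, PP2C, SnRK2, bZIP and output genes, out of 33602 genes counted. They were measured by mRNA-seq in leaves 3 and 4 of *rse1-1* and WT (L*er*) plants of *Arabidopsis* at 16 days after sowing, when the mutant leaves had not yet yellowed, with 3 biological replicates of each genotype. *rse1-1* is an EMS allele of the L*er* background with a C-to-T change that puts an early stop codon into *RSE1* (AT5G22070), a gene of the GT14-like glycosyltransferases. WT was the unmutated L*er* accession, grown in soil under the same long days, and no treatment is named for either genotype. Only 1 allele was sequenced. Whole leaves were used, so fewer cells of a type and less RNA per cell cannot be told apart.

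Clade A PP2C genes are known targets of the ABF factors, and the upstream sequences printed here compare genes with several matches to the core of the ABRE with a gene that has none. The core ACGTG, on either strand, was present in the 250 bases before the annotated start of 20 of the 41 genes (48.8%), against 6288 of 27443 protein-coding genes (22.9%). Among the 9 PP2C genes 6 held it, and among the 5 bZIP genes 4 did. The other roles held it less often, in 3 of 5 turnover, 2 of 4 output and 2 of 6 synthesis genes. It was found in 1 of 3 SnRK2 genes and in 2 of 9 receptor genes. *HAI2* and *PP2CA*, the PP2C genes with 4 and 5 matches, are shown beside the receptor gene *PYL7*, with 3 matches, and *NCED3*, with 0. The core is in capitals, each sequence runs 5′ to 3′ on the strand of the gene (RefSeq, TAIR10.1), and CACGTG counts as 2 overlapping matches.
HAI2, chr1:2282829-2283078, minus strand: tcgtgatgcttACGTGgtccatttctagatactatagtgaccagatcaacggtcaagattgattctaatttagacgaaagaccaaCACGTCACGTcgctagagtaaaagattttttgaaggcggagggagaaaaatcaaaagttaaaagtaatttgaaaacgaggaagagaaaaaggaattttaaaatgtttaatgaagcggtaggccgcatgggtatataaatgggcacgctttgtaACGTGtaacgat
PP2CA, chr3:3585851-3586100, minus strand: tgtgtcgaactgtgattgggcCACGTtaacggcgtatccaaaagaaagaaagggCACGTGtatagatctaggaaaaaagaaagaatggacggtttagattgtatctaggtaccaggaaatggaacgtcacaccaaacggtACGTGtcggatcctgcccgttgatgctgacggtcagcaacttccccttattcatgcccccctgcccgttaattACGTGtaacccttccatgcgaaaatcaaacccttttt
PYL7, chr4:446728-446977, plus strand: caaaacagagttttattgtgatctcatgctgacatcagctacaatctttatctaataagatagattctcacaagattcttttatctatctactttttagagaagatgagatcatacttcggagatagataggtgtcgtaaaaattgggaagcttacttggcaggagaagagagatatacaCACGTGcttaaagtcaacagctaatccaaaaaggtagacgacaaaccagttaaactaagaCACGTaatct
NCED3, chr3:4834016-4834265, minus strand: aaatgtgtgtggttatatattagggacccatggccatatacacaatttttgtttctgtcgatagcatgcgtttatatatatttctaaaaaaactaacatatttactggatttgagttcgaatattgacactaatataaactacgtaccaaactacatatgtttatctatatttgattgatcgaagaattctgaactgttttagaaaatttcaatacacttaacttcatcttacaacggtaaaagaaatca
A match is a run of letters and not a shown binding site. These windows come from the Col-0 reference and not from L*er*.

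Genes of the pathway with few counts lay far from the chromosome starts. All 14 genes with a mean under 10 counts lay more than 5 Mb from the start of their chromosome, and they are treated as not measured. Of the 6 genes in the first 5 Mb, 0 fell under this mean, against 1 of 5 between 5 and 10 Mb and 13 of 30 past 10 Mb. Ribosomal protein genes, which every cell uses, followed position as well, with 12.2% of 74 under 10 counts in the first 5 Mb, 17.9% of 67 between 5 and 10 Mb, and 63.0% of 73 between 15 and 20 Mb. Reads were aligned to a rebuilt L*er* genome, and counts at a locus far from the chromosome start may not belong to the gene named there. Each gene is therefore given with its position in Mb (TAIR10.1), and values past 10 Mb are counts listed at that locus.

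**Figure D1:**
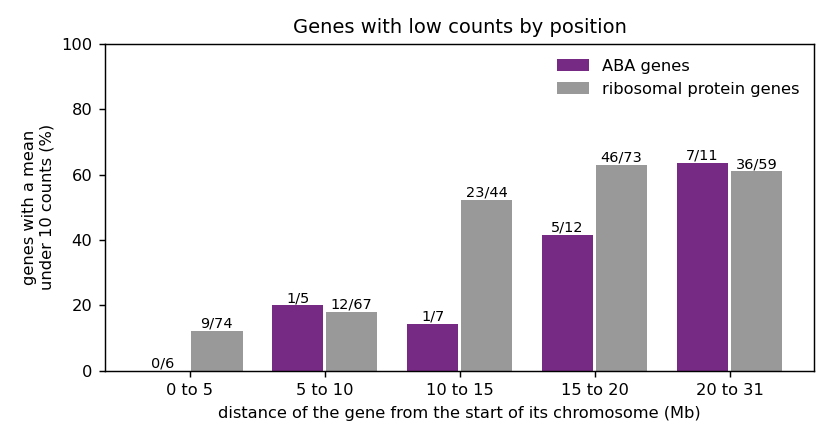
Share of genes with a mean under 10 counts over the 6 libraries (y axis, %) by distance from the chromosome start (x axis, Mb), for the 41 ABA genes and 317 ribosomal protein genes, with the number of genes above each bar. In the first 5 Mb 0 of 6 ABA genes and 9 of 74 ribosomal protein genes were low, and past 15 Mb most ribosomal protein genes were.

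The genes not measured were the synthesis genes *ABA1* and *ABA2*, the receptor genes *PYR1*, *PYL1*, *PYL2*, *PYL4*, *PYL6* and *PYL8*, the PP2C genes *ABI2*, *HAB1* and *AHG1*, the kinase gene *SNRK2.3*, the factor gene *ABI5* and the output gene *RD29B*. Of these, 6 had 0 counts in all 6 libraries. *ABA1*, for zeaxanthin epoxidase, had 2, 4 and 3 counts in *rse1-1* and 1, 2 and 0 counts in WT, although a next gene on the chromosome, AT5G67040, 494 bases upstream of its start, had 1449 to 2047 counts in *rse1-1* and 1583 to 1897 counts in WT. The next gene on its other side had 0 counts in every library. Over all 14 genes, 13 of the 28 next genes on either side also had a mean under 10 counts, against 19 of 54 for the 27 measured genes. Nothing is said here of the expression of the 14 genes. *HAB1* had 11, 6 and 10 counts in *rse1-1* and 2, 3 and 0 counts in WT, which falls short of the minimum.

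Libraries held 10360028 to 15244500 counts on genes in *rse1-1* and 9960144 to 11626752 in WT. A count of 0 allows up to 3 counts, or 0.197 to 0.301 CPM (counts scaled to a library of 1000000), for counting error only. *RSE1* itself averaged 20.4 ± 1.31 CPM in *rse1-1* and 56.3 ± 1.71 CPM in WT (SD, n = 3 each), at 7.31 Mb of chromosome 5. The genotypes differed widely: edgeR's quasi-likelihood test, adjusted over all genes, called 77% of the 16294 genes tested, 38.8% higher and 38.3% lower in *rse1-1*, and the libraries of the genotypes did not overlap in 79.5%. Summed CPM of 10 mesophyll markers, all but 1 of them measured, was 7711 to 9352 in *rse1-1* and 13385 to 14238 in WT. *RBCS1A*, *LHCA1* and *PSBO1*, at 25.0, 20.3 and 26.6 Mb, added little to this sum. The libraries of the genotypes overlapped in *LHCB2.1* and *LHCA1*. In the other measured mesophyll markers every *rse1-1* library was below every WT library. Summed CPM of 4 guard cell markers, with *HT1* at 0 counts, was 70.1 to 80.3 in *rse1-1* and 107 to 117 in WT. For 3 seed markers, 1 of them at 0 counts, it was 8.49 to 9.89 in *rse1-1* and 12.0 to 14.2 in WT, almost all from *CRA1* at 17.8 Mb. Summed CPM of 2 phloem markers was 502 to 529 in *rse1-1* and 580 to 608 in WT, almost all from *SUC2*. For 3 flower markers it was 0.161 to 0.676 in *rse1-1* and 4.64 to 5.02 in WT, mostly from *SEP3*. For 4 root markers it was 1.69 to 1.90 in *rse1-1* and 0 to 0.860 in WT, almost all from *PYK10*. Trichome markers summed to 0.100 CPM or less in every library. The part of these marker shifts in the results was not tested.

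All 27 measured genes entered the test, and 18 were called higher in *rse1-1*, 1 was called lower and 8 were not called. Over all genes tested 38.8% were called higher and 38.3% lower. The median log2 fold change of the 27 was 0.60, against -0.01 over all genes tested. Of the 18, 9 were over 1 on the log2 scale, a mark passed upward by 17.4% of all genes tested. Of these 9, 7 lay past 10 Mb, where counts may not belong to the gene named. Only 1 lay between 5 and 10 Mb and 1 in the first 5 Mb. Past 10 Mb 9 of the 17 tested genes were called higher. The groups did not overlap in 19 of the 27, a smaller share than the 79.5% of all genes tested. Without *HAI3*, which had 1 count in WT and passed the filter through *rse1-1* alone, 17 of 26 were called higher and 8 were over 1. These still held *NCED5* (8, 12 and 8 counts in WT) and *RD29A* (22, 9 and 15 counts in WT). The WT libraries of these genes would not have passed the filter alone, so both entered the test through *rse1-1*. A filter of at least 10 counts in every library removed *HAI3*, *NCED5* and *RD29A*. With that filter 16 genes, *HAI1* among them, were called higher and 1 lower. The fold changes by role show the synthesis, turnover and PP2C genes to the right of 0 except *CYP707A3*, and the kinase and most bZIP genes close to 0. With upper quartile scaling the median of all genes moved to -0.20 and that of the 27 genes to 0.41. The split of calls then became 15 higher and 4 lower, against 5112 higher and 7633 lower over all genes. Of the 6 genes in the first 5 Mb, 5 were called higher, against 39.7% of the genes tested there.

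**Figure D2:**
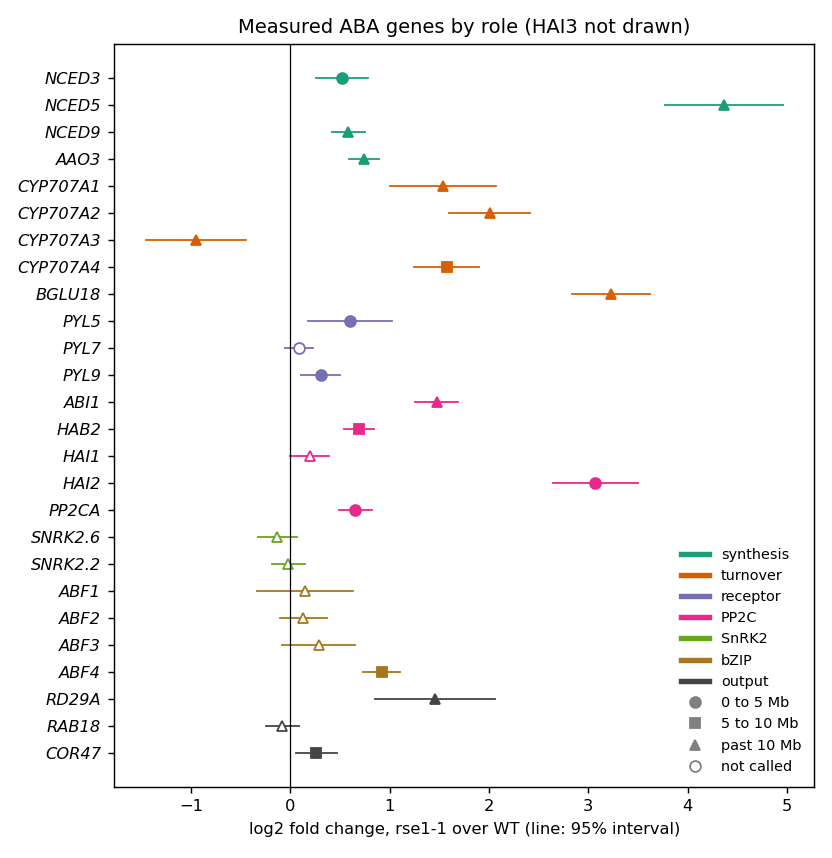
Log2 fold change of *rse1-1* over WT (x axis) for 26 of the 27 measured ABA genes (y axis), in the order of their roles, with 95% intervals as lines; open symbols were not called, and the symbol shape gives the distance from the chromosome start. *NCED5* (4.37), *BGLU18* (3.23) and *HAI2* (3.07) lie farthest right and *CYP707A3* (-0.95) farthest left, while *HAI3*, with 1 count in WT, is not drawn.

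Of the 6 synthesis genes, all 4 that were measured were called higher in *rse1-1*, against 38.8% of all genes tested. Their median log2 fold change was 0.66, against -0.01 over all genes tested. The count and the median include *NCED5*, which entered the test through *rse1-1*. *NCED3*, the drought-induced enzyme of the committed step (AT3G14440, chromosome 3, 4.83 Mb), had 47.8, 49.2 and 50.3 CPM in *rse1-1*, against 40.5, 36.8 and 25.9 CPM in WT. The mutant libraries lay close together and above all WT libraries, of which replicate 3 was the lowest. The log2 fold change was 0.52 ± 0.12 (SE, adjusted p = 0.00136), and without WT replicate 3 it was 0.34. *NCED5* (AT1G30100), another NCED, which lies at 10.6 Mb of chromosome 1, had 19.8, 12.8 and 22.4 CPM in *rse1-1*, against 0.812, 1.18 and 0.689 CPM in WT. This was the largest change of the group, at 4.37 ± 0.28 on the log2 scale (SE, adjusted p = 1.84e-09), with 8 to 12 counts per WT library. These WT counts would not have passed the filter alone, so *NCED5* was tested only because of its counts in *rse1-1*.

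*NCED9* (AT1G78390), known for ABA synthesis in seeds, had 602, 621 and 560 CPM listed at its locus in *rse1-1*, against 426, 380 and 383 CPM in WT. The log2 fold change was 0.58 ± 0.08 (SE, adjusted p = 5.28e-06). Per kb of exon it had the highest level of the 4 genes, 274 CPM in *rse1-1* and 183 CPM in WT, against 18.0 CPM per kb in *rse1-1* and 12.6 CPM per kb in WT for *NCED3*. The locus lies at 29.5 Mb of chromosome 1, where 6 of 10 ribosomal protein genes within 2 Mb were low. *AAO3*, for the abscisic aldehyde oxidase of the last step (AT2G27150, chromosome 2, 11.6 Mb), had 149, 139 and 132 CPM in *rse1-1*, against 83.5, 81.7 and 85.7 CPM in WT. The mutant was higher by 0.74 ± 0.07 on the log2 scale (SE, adjusted p = 1.73e-07).

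Genes for ABA removal and release were called higher in *rse1-1* at 4 of 5 loci, against 38.8% of all genes tested. Their median log2 fold change was 1.57. *CYP707A4*, an 8′-hydroxylase gene (AT3G19270, chromosome 3, 6.67 Mb), had 21.5, 14.9 and 17.1 CPM in *rse1-1*, against 5.68, 6.20 and 6.20 CPM in WT. The increase was 1.57 ± 0.15 on the log2 scale (SE, adjusted p = 2.42e-07). The other 3 hydroxylase genes lie past 10 Mb. *CYP707A1* (AT4G19230) had 9.63, 5.33 and 5.90 CPM in *rse1-1*, against 2.03, 2.66 and 2.58 CPM in WT, and its log2 fold change was 1.54 (adjusted p = 4.83e-05). *CYP707A2* (AT2G29090) had 18.4, 13.2 and 21.8 CPM in *rse1-1*, against 4.26, 3.84 and 5.17 CPM in WT, and its log2 fold change was 2.01 (adjusted p = 1.74e-07). In these hydroxylase genes every *rse1-1* library was above every WT library.

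*CYP707A3* (AT5G45340) was the only gene of the 41 called lower with TMM scaling, with 1.95, 1.26 and 1.91 CPM in *rse1-1* and 2.74, 3.54 and 3.79 CPM in WT. It fell by 0.95 on the log2 scale (SE 0.24, adjusted p = 0.00204), with 13 to 44 counts per library. *BGLU18* (AT1G52400), for a β-glucosidase that frees ABA from its glucose ester and also belongs to the ER bodies of wounded leaves, had 290, 459 and 273 CPM in *rse1-1*, against 35.9, 29.1 and 43.2 CPM in WT. The *rse1-1* libraries were far above WT and replicate 2 was the highest. The log2 fold change was 3.23 ± 0.18 (SE, adjusted p = 5.47e-10). Its locus lies at 19.5 Mb of chromosome 1, and the next gene, *TSA1*, also known from ER bodies, had 631 to 1217 counts in *rse1-1* and 78 to 121 counts in WT.

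Of the 9 receptor genes, the 3 measured ones all lie in the first 5 Mb, and 2 were called higher. In that region 39.7% of all genes tested were called higher. The median log2 fold change of the 3 was 0.31. *PYL5* (AT5G05440, chromosome 5, 1.61 Mb) had 5.14, 7.26 and 6.54 CPM in *rse1-1*, against 4.77, 3.15 and 4.39 CPM in WT. The log2 fold change of 0.60 ± 0.20 (SE, adjusted p = 0.0118) rested on 32 to 82 counts per library, and without WT replicate 2 it was 0.45 (adjusted p = 0.0678). *PYL9* (AT1G01360, chromosome 1, 0.142 Mb) had 23.5, 23.0 and 22.0 CPM in *rse1-1*, against 18.7, 17.8 and 18.9 CPM in WT. Its log2 fold change was 0.31 ± 0.09 (SE, adjusted p = 0.00722). Neither call held with upper quartile scaling, where the log2 fold changes were 0.41 for *PYL5* and 0.11 for *PYL9* (adjusted p = 0.0709 and 0.267).

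*PYL7* (AT4G01026, chromosome 4, 0.447 Mb), whose upstream sequence holds CACGTG, had 70.2, 71.1 and 68.8 CPM in *rse1-1* and 65.7, 65.9 and 66.1 CPM in WT. The libraries did not overlap, but the difference of 0.09 on the log2 scale was not called (95% interval -0.05 to 0.23, adjusted p = 0.238). The gene overlaps AT4G01030 of the other strand, which had 87 to 108 counts in *rse1-1* and 127 to 145 counts in WT, and the strand setting of the counting was not given. Per kb of exon the order of the receptors was the same in both genotypes, with *PYL7* at 56.5 CPM in *rse1-1* and 53.1 CPM in WT, *PYL9* at 19.4 CPM in *rse1-1* and 15.7 CPM in WT, and *PYL5* at 4.1 CPM in *rse1-1* and 2.67 CPM in WT. These levels were separated by more than the spread between replicates.

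**Figure D3:**
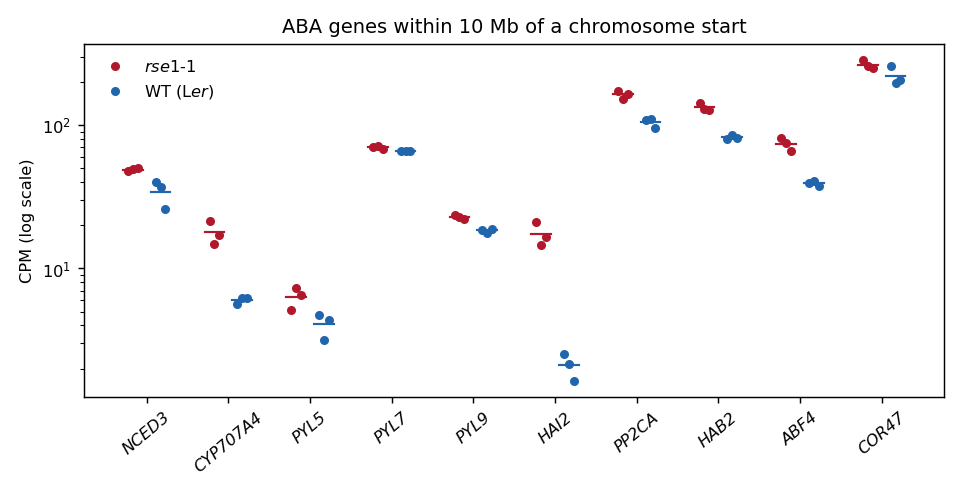
CPM (y axis, log scale) of the 10 measured ABA genes within 10 Mb of a chromosome start (x axis), with a point per library and a line at the mean of each genotype. The 3 *rse1-1* libraries lie above the 3 WT libraries for every gene drawn except *COR47*, by most for *HAI2* (17.5 CPM on average in *rse1-1*, 2.11 CPM in WT) and by little for *PYL7*.

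PP2C genes, the inhibitors of the pathway, were called higher in *rse1-1* at 5 of 6 measured loci, against 38.8% of all genes tested. Their median log2 fold change was 1.08. Without *HAI3* the count and the median were 4 of 5 and 0.69. *HAI2* (AT1G07430, chromosome 1, 2.28 Mb), a member of the highly ABA-induced subgroup, had 21.2, 14.6 and 16.6 CPM in *rse1-1*, against 2.54, 2.17 and 1.64 CPM in WT. These were 151 to 326 counts in *rse1-1* and 19 to 25 counts in WT. The difference was 3.07 ± 0.20 on the log2 scale, an 8.39-fold increase (SE, adjusted p = 2.61e-09), and all 12 ribosomal protein genes within 2 Mb were measured. *PP2CA* (AT3G11410, chromosome 3, 3.58 Mb) had 175, 152 and 166 CPM in *rse1-1*, against 108, 110 and 96.3 CPM in WT. The increase was 0.65 ± 0.08 on the log2 scale (SE, adjusted p = 1.98e-06).

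*HAB2* (AT1G17550, chromosome 1, 6.03 Mb) had 144, 129 and 128 CPM in *rse1-1*, against 80.7, 85.0 and 82.0 CPM in WT, and its log2 fold change was 0.69 (adjusted p = 4.18e-07). *ABI1*, named for an ABA-insensitive mutant (AT4G26080, chromosome 4, 13.2 Mb), had 67.2, 61.6 and 74.2 CPM in *rse1-1*, against 27.9, 23.6 and 21.8 CPM in WT. That was a log2 fold change of 1.47 ± 0.10 (SE, adjusted p = 4.35e-09). The end of *ABI1* overlaps that of *MEK1* on the other strand, which had 276 to 425 counts in *rse1-1* and 118 to 153 counts in WT.

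*HAI3* (AT2G29380, chromosome 2, 12.6 Mb) had 95, 70 and 83 counts in *rse1-1*, against 0, 0 and 1 counts in WT. Its summed counts per library size were 207-fold higher in *rse1-1*, with an exact counting interval (Clopper-Pearson, 95%) of 36.9 to 8221, and the gene passed the filter only through the mutant libraries. The median of the PP2C genes is the same for any ratio within this interval. *HAI1* (AT5G59220, chromosome 5, 23.9 Mb) was not called, with 38.1, 39.3 and 33.0 CPM in *rse1-1* and 34.3, 31 and 31.1 CPM in WT (log2 fold change 0.20, 95% interval 0.00 to 0.39, adjusted p = 0.0625). It passed the threshold with RLE scaling (0.22, adjusted p = 0.0411) and without *rse1-1* replicate 3 (0.27, adjusted p = 0.0143) or WT replicate 1 (0.24, adjusted p = 0.0338). Per kb of exon *PP2CA* had the highest level, 91.3 CPM in *rse1-1* and 58.2 CPM in WT. *HAB2* followed at 50.5 CPM in *rse1-1* and 31.3 CPM in WT, and *HAI2* stood at 9.17 CPM in *rse1-1* and 1.11 CPM in WT.

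Neither measured SnRK2 gene was called, whereas 77% of all genes tested were. *SNRK2.6*, for the guard cell kinase OST1 (AT4G33950, chromosome 4, 16.3 Mb), had 23.3, 24.8 and 27.4 CPM in *rse1-1* and 28.3, 26.1 and 28.2 CPM in WT. The log2 fold change was -0.13 (95% interval -0.33 to 0.07, adjusted p = 0.208), beside the lower summed guard cell markers given before. *SNRK2.2* (AT3G50500, chromosome 3, 18.7 Mb), a kinase that acts broadly in ABA responses, had 66.8, 66.6 and 72.4 CPM in *rse1-1* and 76.6, 67.9 and 64.5 CPM in WT. The groups overlapped, and the log2 fold change was -0.02 (95% interval -0.19 to 0.15, adjusted p = 0.816). With upper quartile scaling both were called lower in *rse1-1*, at -0.32 and -0.21 (adjusted p = 0.00536 and 0.0235).

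Among the bZIP genes 1 of 4 measured was called, against 77% of all genes tested. *ABF4* (AREB2, AT3G19290, chromosome 3, 6.69 Mb) had 81.7, 74.9 and 66.0 CPM in *rse1-1*, against 39.3, 40.6 and 37.9 CPM in WT. Its log2 fold change was 0.92 ± 0.09 (SE, adjusted p = 1.54e-07), whereas the gene that overlaps its end, AT3G19300, had 59 to 74 counts in *rse1-1* and 101 to 110 counts in WT. In *ABF1*, *ABF2* and *ABF3*, all past 15 Mb, the libraries of the genotypes overlapped. *ABF1* (AT1G49720) had 7.94, 7.17 and 4.54 CPM in *rse1-1* and 7.61, 6.01 and 4.39 CPM in WT (log2 fold change 0.15, 95% interval -0.34 to 0.63). *ABF2* (AREB1, AT1G45249) had 18.9, 19.7 and 17.1 CPM in *rse1-1* and 18.8, 17.0 and 15.2 CPM in WT (0.13, -0.11 to 0.37). *ABF3* (AT4G34000) had 12.3, 9.88 and 7.57 CPM in *rse1-1* and 9.23, 8.07 and 7.41 CPM in WT (0.28, -0.09 to 0.66). The adjusted p-values of the 3 were 0.565, 0.293 and 0.148, and *ABF3* was called without *rse1-1* replicate 3 (0.45, adjusted p = 0.0186). The end of *ABF1* overlaps AT1G49730 of the other strand, which had 337 to 448 counts in *rse1-1* and 730 to 820 counts in WT. That of *ABF3* overlaps *DJ1C* of the other strand, which had 304 to 368 counts in *rse1-1* and 457 to 534 counts in WT.

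Of the 3 measured output genes of the list, 2 were called higher and 1 was not called. Among all genes tested 38.8% were called higher. *RD29A*, induced by drought, cold and ABA (AT5G52310, chromosome 5, 21.2 Mb), had 67, 47 and 40 counts in *rse1-1*, against 22, 9 and 15 counts in WT. Its log2 fold change was 1.46 ± 0.28 (SE, adjusted p = 2.59e-04). The WT counts of *RD29A* would not have passed the filter alone, so it was tested only because of its counts in *rse1-1*. *COR47*, a dehydrin gene (AT1G20440, chromosome 1, 7.08 Mb), had 285, 258 and 252 CPM in *rse1-1*, against 259, 198 and 206 CPM in WT. The groups overlapped, since WT replicate 1 lay above both lower *rse1-1* libraries. Its log2 fold change was 0.26 ± 0.10 (SE, adjusted p = 0.0215), and the call was lost without *rse1-1* replicate 1 (0.22, adjusted p = 0.0740), WT replicate 2 (0.19, adjusted p = 0.13) or WT replicate 3 (0.21, adjusted p = 0.0915), and with upper quartile scaling (0.07, adjusted p = 0.510). *RAB18*, an ABA-induced dehydrin gene (AT5G66400, chromosome 5, 26.5 Mb), had 36.3, 40.1 and 37.9 CPM in *rse1-1* and 41.5, 39.8 and 39.6 CPM in WT. It was not called (log2 fold change -0.08, 95% interval -0.25 to 0.09, adjusted p = 0.351), and with upper quartile scaling it was called lower in *rse1-1* (-0.27, adjusted p = 0.00595).

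Beyond the 41 genes, 60 other genes of ABA transport, signaling and response were read from the same test. Of 38 tested, 19 were called higher and 11 lower in *rse1-1*, with a median log2 fold change of 0.33. Among these, *AFP3* (9, 7 and 3 counts in WT) entered the test through *rse1-1* alone. *SNRK2.7* (9, 4 and 7 counts in *rse1-1*) entered it through WT alone. A filter of at least 10 counts in every library removed both, and 18 genes were then called higher and 10 lower. Over all genes tested 77% were called, 38.8% higher and 38.3% lower, with a median of -0.01. The share called in this list was thus close to that of all genes. The 11 lower genes held 7 of the 12 tested output genes, whose median was -0.58, while 2 output genes, *LEA14* and *XERO2*, were higher. *COR15A*, for a chloroplast protein of cold and drought (chromosome 2, 17.7 Mb), averaged 42.3 ± 3.47 CPM in *rse1-1* and 228 ± 34.1 CPM in WT (SD, n = 3 each), a log2 fold change of -2.43 (adjusted p = 3.11e-11). All 4 genes of protein turnover in the pathway were higher in *rse1-1*.

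**Figure D4:**
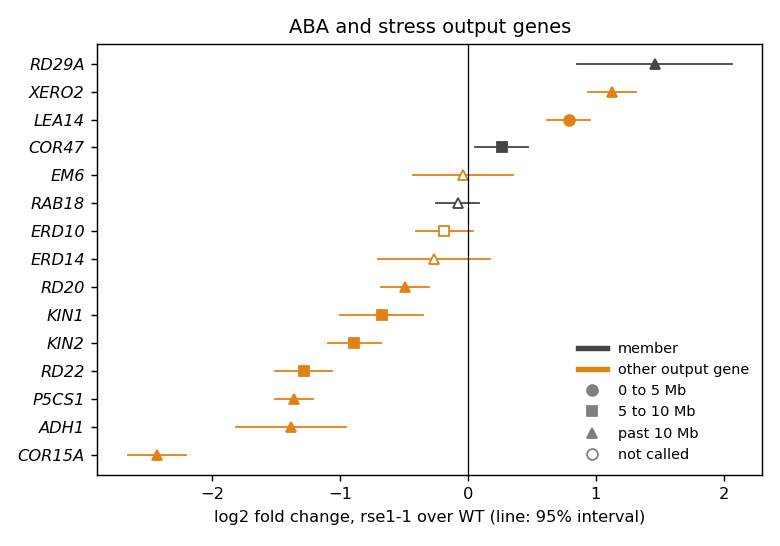
Log2 fold change of *rse1-1* over WT (x axis) with 95% intervals for the 15 tested ABA and stress output genes (y axis), 3 of them from the 41 genes (dark) and 12 from the other list (orange). Open symbols were not called, and the points run from -2.43 for *COR15A* to 1.46 for *RD29A*.

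All 3 tested transport genes were called higher in *rse1-1*, against 38.8% of all genes tested. *ABCG40*, for an ABA importer of the plasma membrane (chromosome 1, 5.33 Mb), had 31894, 19150 and 20317 counts in *rse1-1*, against 12, 14 and 67 counts in WT. WT replicate 3 held most of the WT counts, and the log2 fold change was 9.30 with it and 10.46 without it (adjusted p = 5.32e-13 with all libraries). *NPF4.6*, for another ABA importer, averaged 330 ± 8.95 CPM in *rse1-1* and 114 ± 14.0 CPM in WT (SD, n = 3 each), at 26.3 Mb of chromosome 1. Its log2 fold change was 1.54 (adjusted p = 4.03e-10).

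Of 4 ion channel and oxidase genes of the guard cell response, 3 were called higher in *rse1-1*, against 38.8% of all genes tested. *RBOHD* and *RBOHF*, for NADPH oxidases that make reactive oxygen species in ABA and defense responses, lie at 19.4 Mb of chromosome 5 and 23.8 Mb of chromosome 1. *RBOHD* averaged 140 ± 8.59 CPM in *rse1-1* and 26.8 ± 1.21 CPM in WT (SD, n = 3 each), a log2 fold change of 2.38 (adjusted p = 1.47e-12). *RBOHF* averaged 57.9 ± 6.03 CPM in *rse1-1* and 15.4 ± 0.769 CPM in WT (SD, n = 3 each), a log2 fold change of 1.91 (adjusted p = 2.07e-10). These genes are used outside guard cells as well. In the first 5 Mb 6 of the 8 genes of the other list were called higher and 0 lower, with a median of 0.70. Of all genes tested there, 39.7% were called higher. Past 5 Mb 13 of the 30 tested genes of the other list were called higher and 11 lower, with a median of -0.001.

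The ABRE core was present upstream of 8 of the 18 genes called higher, of 5 of the 9 measured genes that were not called or lower, and of 7 of the 14 genes not measured. *HAI2* and *PP2CA*, with 4 and 5 matches in the sequences printed above, differed by 3.07 and 0.65 on the log2 scale. *NCED3* had 0 matches in its window and a log2 fold change of 0.52, and *PYL7* had 3 matches and 0.09. The core of the drought-responsive element, CCGAC on either strand, was found upstream of 6 of the 41 genes (14.6%) and of 12.0% of protein-coding genes.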

How the data were processed

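Poly-A RNA was sequenced by the authors as strand-marked single reads of 75 bases. Per the submitters' processing notes, the tools were bcl2fastq 1.8.4, FastQC 0.11.2, Trimmomatic 0.32.3, TopHat2 2.0.9, Picard 1.119, HTSeq 0.6.1 and DESeq2. Reads were aligned to a L*er*-0 genome rebuilt from Col-0, duplicates were removed, and unique reads were counted on genes. Counts were deposited by the authors as whole numbers, not normalized. The strand setting and annotation version are not given in the sources used here. Entries naming no gene (47.0% to 48.7% of a library) were left out.

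Genotypes were taken from the labels, which do not say how replicates were grown. Counts of all 6 libraries were tested with edgeR 4.0.16 (R 4.3.3; TMM, filterByExpr with a minimum count of 10, genotype alone, quasi-likelihood test, Benjamini-Hochberg adjustment over 16294 genes, threshold 0.05). CPM of single genes uses TMM-scaled library sizes, and the marker sums and the limit for a count of 0 use unscaled sizes. The fit was tested on simulated data. Alternatives were DESeq2 1.42.0, voom of limma 3.58.1, RLE and upper quartile scaling, library size alone, other filters, stricter thresholds, the replicate number as a block, and each library left out.

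Positions, names and windows of 250 bases come from TAIR10.1, to which 32835 of the 33602 genes matched, all 41 members included. The genes, the other 60 genes and the markers were chosen with earlier results of these data known. All 41 genes are named. Of the other list the 5 called genes with the largest fitted change and a mean of at least 10 CPM are described with values. *LEA14*, *XERO2*, *AFP3* and *SNRK2.7* were named after their values were seen, as were the neighbours.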

Additional observations from a re-analysis of the deposited data

How the results depend on the processing

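Calls depended most on upper quartile scaling, which left 18 of the 27 measured genes with the same call and sign. RLE scaling and library size alone each left 26 the same, and leaving out 1 library left 24 to 26. With upper quartile scaling *PYL5*, *PYL9* and *COR47* lost their calls, *SNRK2.6*, *SNRK2.2* and *RAB18* were called lower in *rse1-1*, and *PYL7* (-0.10), *ABF1* (-0.046) and *ABF2* (-0.062), none of them called, changed sign. The other list then split into 18 higher and 15 lower. *SNRK2.2* also changed sign, near 0, with DESeq2 (0.0065), with at least 10 counts in every library (0.0041), and without *rse1-1* replicate 1 (0.011), *rse1-1* replicate 2 (0.013) or WT replicate 1 (0.0505), in a range from -0.075 to 0.0505 over the libraries left out. *ABF1* did so without *rse1-1* replicate 1 (-0.03) or WT replicate 3 (-0.048), in a range from -0.048 to 0.36. Counts of calls were 12548 over all genes, 19 in the 41 genes and 30 in the other list. A log2 fold change over 1 in either direction left 5175, 9 and 17, and genes in the first 5 Mb alone gave 3298, 5 and 6, since fewer genes can pass. Leaving out 1 library gave 11911 to 12546, 17 to 21 and 29 to 31. Same-numbered libraries did not deviate together (correlations 0.039, 0.072 and -0.060), and a fit with the replicate block called 12546, 19 and 32. In all, 11 of the 27 measured genes changed call or sign under at least 1 of 14 alternatives. With 8 to 25 counts per WT library, the folds of *NCED5*, *HAI2* and *RD29A* are limited by depth.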
